A study of Mus musculus with 4 samples.

Results

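The D-type cyclins, the kinases they activate and the inhibitors of those kinases were followed in 2 clones of immortalised mouse mammary epithelial cells that lack Deaf-1 and received either a Deaf-1 retrovirus or an empty one. The genes were Ccnd1, Ccnd2 and Ccnd3 (cyclins D1, D2 and D3), Cdk4 and Cdk6 (their kinases), Cdkn1b and Cdkn1c (the CIP/KIP inhibitors p27 and p57) and Cdkn2a, Cdkn2b and Cdkn2c (INK4 inhibitors). They were chosen by gene symbol, with earlier results of these arrays known, and the mean over the 4 arrays chose the probe set that leads each gene. All 10 genes had at least 1 probe set that carries their symbol alone, 25 in all, out of 18193 genes and 45037 probe sets. All cells came from Deaf-1-/- females of 8 weeks. Whether both clones came from 1 animal is not settled by the study's text, which gives the source once as a mouse and once as mice, and the sources used here give no strain. They had been immortalised with a retrovirus for the HPV16 E6 and E7 proteins. Clones C1 and E1 were each transduced with both retroviruses, selected in puromycin for 48 hours and measured on 1 Affymetrix array per clone and retrovirus. Control cells therefore carry the same deletion, E6 and E7, and the same selection as Deaf-1-transduced cells. Each clone is a single line, so a difference between clones is one between 2 lines and not between groups of animals.

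D-type cyclins are made in response to growth factors and bind Cdk4 or Cdk6. The active kinase phosphorylates the retinoblastoma protein, which then releases E2F transcription factors that drive entry into S phase. INK4 proteins bind Cdk4 and Cdk6 and keep the cyclin away, whereas CIP/KIP proteins act on complexes of cyclin and kinase, above all those of Cdk2. In the mammary gland cyclin D1 is needed for the growth of the alveoli in pregnancy. The E7 protein binds and inactivates the retinoblastoma protein, and E6 brings about the loss of p53, so both act on the same route.

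Values are log2 expression after RMA, the authors' normalization, in which a step of 1 is a 2-fold difference. A background level of 3.84 was taken from 43 probe sets of olfactory receptors, a family that mammary cells should not express. It is the 95th percentile of their means over the 4 arrays. Deaf1 itself read 5.01 and 4.91 in control cells and 6.73 and 6.25 with the Deaf-1 retrovirus (C1 and E1), a log2 fold change of 1.53 (standard error 0.17). Control cells, which lack Deaf-1, thus read above this level too, for a reason that was not tested. The epithelial name of the cells is that of the study, and the markers of this type were mixed. Apart from Acta2, all of them read below the fibroblast list average given further on. Of 7 luminal genes 3 were above background on all arrays, namely Epcam (5.81 to 6.33), Cldn3 (5.19 to 5.88) and Krt19 (4.37 to 4.64). The luminal genes Krt18 (2.75 to 3.51), Cdh1 (2.22 to 2.42) and Cldn4 (2.86 to 3.37) lay below it on all arrays, and Krt8 crossed it (3.46 to 4.01). Of 6 basal or myoepithelial genes 3 were above background on all arrays, namely Acta2 (11.5 to 11.8), Krt5 (4.45 to 4.74) and Trp63 (at most 4.43), whereas Krt14 and Krt17 lay below it on all arrays and Oxtr was above it on 1. All 9 fibroblast genes had a mean above background, with Col1a1 at 12.5 to 12.8. Between the clones Lum was lower in E1 by a log2 difference of -2.82 and Pdgfrb higher by 0.83, both with an unadjusted p under 0.01 by limma. Of 4 measured adipocyte genes 2 were higher in E1 at that threshold. Pparg read 3.16 and 2.95 in C1 and 6.62 and 6.53 in E1, and Fabp4 read 2.57 and 3.775 in C1 and 10.6 on both arrays of E1. Lpl (-0.27) did not pass, and Adipoq lay below background on all arrays. The 4 genes averaged 5.16 and 5.47 on the C1 arrays and 7.996 and 7.951 on the E1 arrays. Lpl (12.4 to 12.7) carried the C1 averages, as the other adipocyte genes lay below background on both C1 arrays. The luminal list averaged 3.88 to 4.22, the basal list 4.96 to 5.21 and the fibroblast list 10.85 to 11.08. Acta2 carried the basal average, as no other gene of that list read above 4.74. Means were above background for 2 of 5 endothelial genes (list average 4.04 to 4.25) and 2 of 5 measured immune genes (3.68 to 3.99). These were Kdr (4.20 to 4.24) and Tek (6.38 to 7.29), and Cd3e (4.32 to 4.71) and Csf1r (5.81 to 6.30). Krt19, Krt5 and Trp63 thus read close to the T cell gene Cd3e, and values in that range do not by themselves show expression. In such bulk RNA, fewer cells of a type and less RNA per cell cannot be told apart.

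Ccnd1 and Cdkn1c were much higher in clone E1 than in clone C1, with either retrovirus, and the other 8 genes lay within a narrow range. No gene of the set passed the test between Deaf-1-transduced and control cells, which 0.0244% of all probe sets passed. At an unadjusted p under 0.01 from limma, with retrovirus in the model, the E1 arrays were higher at 4 of 25 member probe sets (16%) and lower at 0. Over all 45037 probe sets the shares were 2.55% higher and 2.83% lower. The 4 were the probe sets of Ccnd1 and that of Cdkn1c, so by leading probe set 2 of 10 genes (20%) were higher. Of the 25, 23 were above background, against 22312 of all probe sets. Fitted alone, 2093 of those 22312 had p under 0.01 by limma in either direction. At an adjusted p under 0.05 by limma, 2 of the 25 member probe sets passed, both higher in E1. Of all 45037 probe sets, 31 (0.0688%) passed as higher. Arrays of the clones did not overlap at 17 of 25 member probe sets (68%), against 47.1% of all probe sets, so that lack of overlap alone is common here. Since nothing beyond these 2 lines was sampled, the p-values reflect the spread between arrays alone. Pparg, Fabp4, Lum and Pdgfrb of the marker lists differ between the clones as well, and the part of other cell types in these results was not tested.

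**Figure D1:**
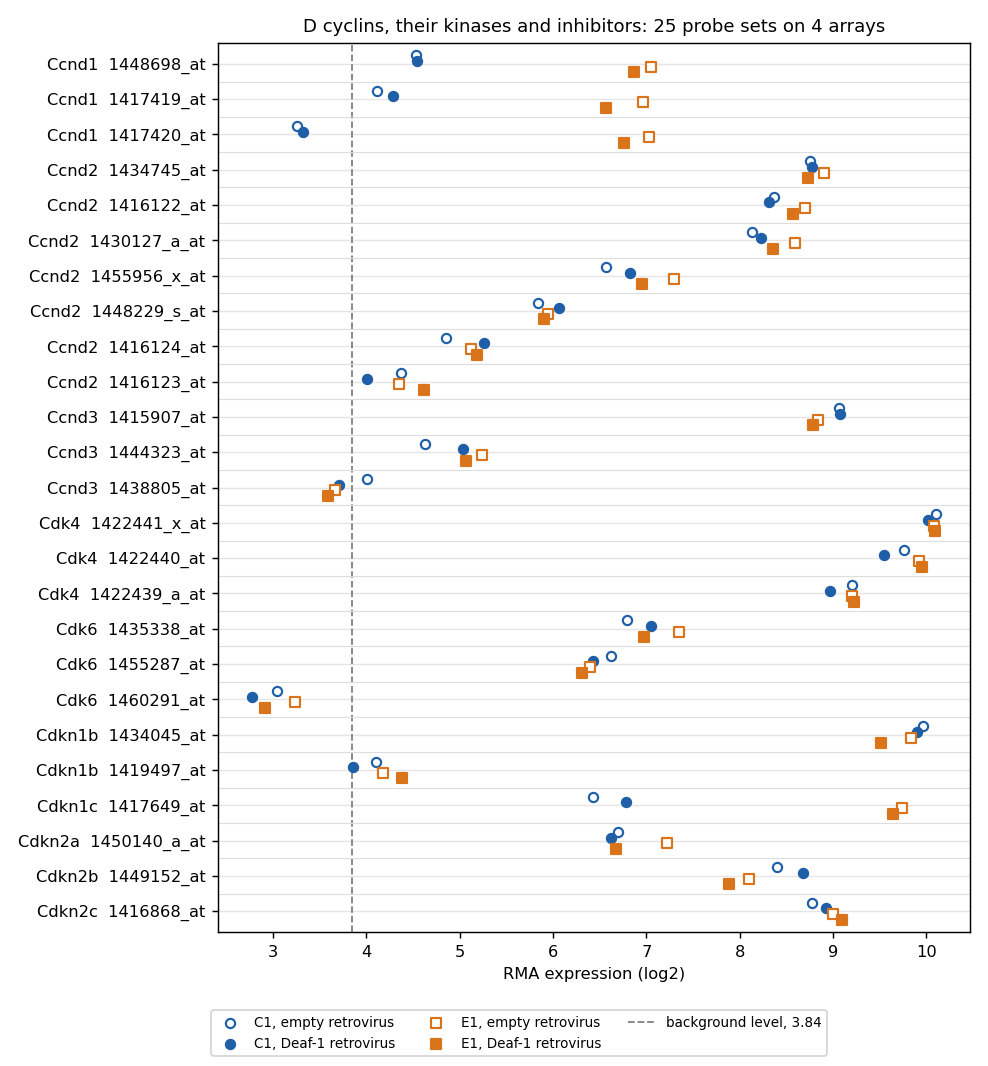
RMA expression (log2, horizontal axis) of the 25 probe sets of the 10 genes on each of the 4 arrays. Clone C1 is shown as blue circles and clone E1 as orange squares, open with the empty and filled with the Deaf-1 retrovirus, and the dashed line is the background level of 3.84. The clones stand far apart at the 3 probe sets of Ccnd1 and at Cdkn1c.

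Cyclin D1 RNA read low in clone C1 and well above background in clone E1. The C1 values at all Ccnd1 probe sets lay in the range of Cd3e (4.32 to 4.71) or lower. They also lay below Deaf1 in control cells (5.01 and 4.91). Such values do not by themselves show expression in C1, so the folds are given as read. At the leading Ccnd1 probe set, 1448698_at, the log2 value was 4.53 in control C1 cells, 4.54 in C1 cells with Deaf-1, 7.04 in control E1 cells and 6.86 in E1 cells with Deaf-1. Both E1 arrays were thus higher than both C1 arrays, whichever retrovirus they carried. The means were 4.53 ± 0.0045 (SD, n = 2 arrays) in C1 and 6.95 ± 0.13 (SD, n = 2) in E1, a 5.35-fold difference. The log2 difference of 2.42 (standard error 0.15) gave 5.94e-05 as unadjusted p and 0.0529 after adjustment by limma, and in 5 other fits the adjusted p lay between 0.00225 and 0.0214. Of all probe sets, 56 had a difference at least this large in favour of E1.

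The other Ccnd1 probe sets had the same direction. At 1417419_at the values were 4.11 and 4.29 in C1 (control, then Deaf-1) and 6.97 and 6.57 in E1. This is a log2 difference of 2.57 (standard error 0.20, adjusted p = 0.0606 by limma, 0.00342 to 0.0241 in the other fits). At 1417420_at they were 3.26 and 3.32 in C1, below background, and 7.03 and 6.76 in E1. Since C1 gives only a bound there, E1 was at least 8.29-fold higher than the background level (log2 difference as read 3.61, standard error 0.16, adjusted p = 0.0322 by limma, 0.000790 to 0.0115 in the other fits). As read, every Ccnd1 probe set thus put E1 above C1 by 5.35-fold or more. The low C1 values may limit the size of these folds at the other probe sets as well.

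Cyclin D2, the D cyclin with the most probe sets, differed little. At its leading probe set 1434745_at the values were 8.75 and 8.77 in C1 (control, then Deaf-1) and 8.90 and 8.73 in E1, and the clones overlapped. The log2 difference between clones was 0.059 (standard error 0.15, adjusted p = 0.931 by limma). Over its 7 probe sets the difference ran from -0.025 to 0.42. In 6 of them E1 was higher on average and in 3 the clones did not overlap, but none had p under 0.01.

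Cyclin D3 was read at a high level by 1415907_at. The values were 9.06 and 9.07 in C1 (control, then Deaf-1) and 8.84 and 8.78 in E1. Both E1 arrays were the lower ones, and the log2 difference of -0.26 (standard error 0.14) did not pass (adjusted p = 0.529 by limma). The dimmer probe set 1444323_at pointed the other way with 0.32, from 4.62 and 5.03 in C1 to 5.24 and 5.07 in E1, and 1438805_at, near background, read -0.23. The D cyclins therefore differed between the clones in cyclin D1 only, as far as these tests reach. The difference between the differences was not tested.

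**Figure D2:**
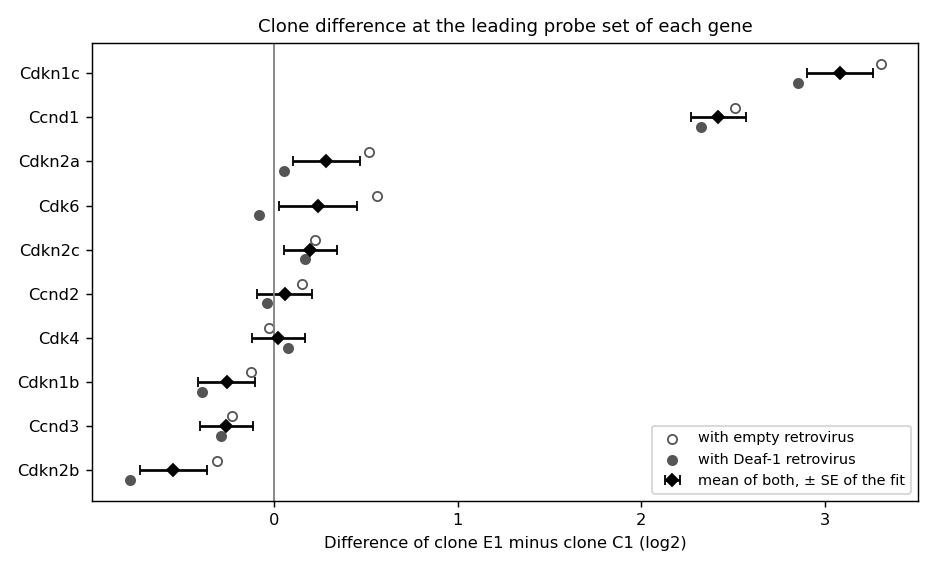
Difference of clone E1 minus clone C1 (log2, horizontal axis) at the leading probe set of each gene, with the empty retrovirus (open circles), with the Deaf-1 retrovirus (filled circles) and over both (diamonds, with the standard error of the fit). Cdkn1c (3.08) and Ccnd1 (2.42) lie far to the right, and the other 8 genes between -0.55 and 0.28.

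The kinases were at similar levels in both clones. Cdk4, the main partner of D cyclins in most cells, read 10.10 and 10.02 in C1 (control, then Deaf-1) and 10.08 and 10.09 in E1 at 1422441_x_at. The clones overlapped, and the log2 difference was 0.024 (standard error 0.14). At 1422440_at and 1422439_a_at, where E1 was higher on both arrays, the differences were 0.28 and 0.13, with adjusted p of 0.525 and 0.799 by limma. Probes of a set named _x_at may also match other transcripts, so the 3 values are given side by side.

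Cdk6, the related kinase, read 6.79 and 7.05 in C1 (control, then Deaf-1) and 7.35 and 6.97 in E1 at 1435338_at. The control arrays differed by 0.56 between the clones and the Deaf-1 arrays by -0.084, so the clones overlapped (log2 difference 0.24, standard error 0.21, adjusted p = 0.717 by limma). At 1455287_at the difference was -0.17. The remaining Cdk6 probe set, 1460291_at, was below background on all 4 arrays (2.78 to 3.24) and gives no information on the transcript.

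Cdkn1c had the largest clone difference of the 10 leading probe sets. It encodes p57, a CIP/KIP inhibitor that is imprinted and is best known for holding cells out of the cycle during development. At 1417649_at, its only probe set, the log2 value was 6.43 in control C1 cells, 6.78 in C1 cells with Deaf-1, 9.74 in control E1 cells and 9.64 in E1 cells with Deaf-1. All 4 arrays were above background, and both E1 arrays were higher by about 3 log2 steps. The means were 6.61 ± 0.25 (SD, n = 2 arrays) in C1 and 9.69 ± 0.070 (SD, n = 2) in E1, an 8.47-fold difference. The log2 difference of 3.08 (standard error 0.18) reached 4.68e-05 as unadjusted p and 0.0439 after adjustment by limma, and the adjusted p was 0.00101 to 0.0168 in 5 other fits. Of all probe sets, 25 had a difference at least this large in favour of E1.

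The related inhibitor Cdkn1b, which encodes p27, did not share this difference in size. At 1434045_at it read 9.97 and 9.90 in C1 (control, then Deaf-1) and 9.84 and 9.51 in E1. The E1 arrays were the lower ones, by a log2 difference of -0.26 (standard error 0.16, adjusted p = 0.569 by limma). Its dim probe set 1419497_at, close to background, had 0.30 in the opposite direction.

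The INK4 inhibitors showed smaller differences. Cdkn2b, which encodes p15 and is known as a target of TGF-beta, read 8.40 and 8.67 in C1 (control, then Deaf-1) and 8.09 and 7.89 in E1 at 1449152_at. Both E1 arrays were below both C1 arrays, by a log2 difference of -0.55 (standard error 0.18), a 1.46-fold difference with an unadjusted p of 0.0381 that did not reach 0.01 (adjusted p = 0.309 by limma). Cdkn2c, which encodes p18, read 8.77 and 8.92 in C1 and 8.996 and 9.093 in E1 at 1416868_at, a log2 difference of 0.20 (standard error 0.14, adjusted p = 0.643 by limma). The E1 arrays were both higher, without overlap, by little more than the standard error.

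Cdkn2a encodes 2 proteins from separate first exons, the INK4 protein p16 and the p53 regulator p19Arf. Its only probe set, 1450140_a_at, is of a kind whose probes match more than 1 transcript of a gene, so the value may hold both. It read 6.70 and 6.62 in C1 (control, then Deaf-1) and 7.22 and 6.67 in E1. The control E1 array was the highest and the other 3 lay close together, so the clones overlapped (log2 difference 0.28, standard error 0.18, adjusted p = 0.594 by limma).

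Cdkn2a and Cdkn2b are neighbours on chromosome 4. Their upstream sequences are shown because a single Cdkn2a value stands for 2 starts that lie 12427 bases apart, and because Cdkn2b is the gene of the set that was lower in E1 on average by most. Each run is the 250 bases before a start in RefSeq, build GRCm38.p6, on the minus strand and read 5′ to 3′. Capitals mark TTCG, the core of the motif that DEAF-1 binds, on either strand (CGAA on the other), and a spelling of the E2F site. The windows are chr4:89282193-89282442 for the downstream Cdkn2a start, chr4:89294620-89294869 for the upstream Cdkn2a start and chr4:89311033-89311282 for Cdkn2b.
Cdkn2a downstream start: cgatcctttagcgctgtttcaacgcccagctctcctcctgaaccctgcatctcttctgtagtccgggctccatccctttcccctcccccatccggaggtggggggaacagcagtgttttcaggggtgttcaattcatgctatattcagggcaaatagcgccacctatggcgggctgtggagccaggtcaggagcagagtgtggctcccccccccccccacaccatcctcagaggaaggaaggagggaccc
Cdkn2a upstream start: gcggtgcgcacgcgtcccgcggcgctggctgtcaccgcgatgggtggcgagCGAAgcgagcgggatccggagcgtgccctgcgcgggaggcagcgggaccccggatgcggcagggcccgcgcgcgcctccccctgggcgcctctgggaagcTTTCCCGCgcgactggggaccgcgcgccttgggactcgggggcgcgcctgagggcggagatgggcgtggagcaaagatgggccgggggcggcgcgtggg
Cdkn2b start: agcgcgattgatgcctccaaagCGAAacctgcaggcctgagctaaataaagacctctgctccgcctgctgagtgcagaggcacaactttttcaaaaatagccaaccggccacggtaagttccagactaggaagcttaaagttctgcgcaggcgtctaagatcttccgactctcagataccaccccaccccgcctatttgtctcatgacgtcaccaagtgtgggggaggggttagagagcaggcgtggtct
Windows of 7 of the 10 genes were read, 10 windows in all, and those of Ccnd1, Ccnd2 and Cdkn1c were not analysed here. TTCG occurred in 6 of the 10 windows, against 38.7% of all 32851 windows of this length. One of the E2F spellings TTTGGCGC, TTTCGCGC, TTTCCCGC and TTTGCCGC, searched on both strands, occurred in 1 of the 10, that of the upstream Cdkn2a start, against 1.86% of all windows. A match is a run of letters and not a bound site.

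No change with Deaf-1 in the 10 genes passed the test, and few probe sets of the array did. At an unadjusted p under 0.01 by limma, with clone in the model, 0 of 25 member probe sets passed, against 0.0244% of all probe sets (11 in number). At an unadjusted p under 0.05, 0 of 25 passed, against 394 of all 45037. With so few passing, 0 of 25 does not set the members apart. The smallest unadjusted p of a member, 0.109, belonged to the Cdk6 probe set below background, and every adjusted p was 1 by limma, as for all probe sets. The log2 fold changes of the 10 leading probe sets ran from -0.31 to 0.13, with a median of -0.047, against a median of -0.0043 over all probe sets. Standard errors of 0.14 to 0.21 mean that changes of this size could not be told from none with 4 arrays.

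Opposite signs in the clones were common at all probe sets. They were seen at 17 of 25 member probe sets (68%) and at 58.9% of all probe sets, so that little sets the members apart. Of the 25, 18 were lower with Deaf-1 in E1, against 48.8% of all probe sets, and 11 in C1, against 51.8%. Among the leading probe sets, Cdkn1b (-0.068 in C1, -0.33 in E1) and Cdkn2a (-0.084 and -0.55) were lower in both clones, and Cdkn2c (0.15 and 0.097) was higher in both. Cdkn2a had the largest mean change, -0.31 (standard error 0.18), most of it from clone E1. Ccnd1 read 0.0063 in C1 and -0.18 in E1, with a mean of -0.086 (standard error 0.15). Its other probe sets read 0.17 and -0.40 at 1417419_at and 0.062 and -0.27 at 1417420_at. Cdkn1c read 0.35 in C1 and -0.099 in E1 (mean 0.13, standard error 0.18).

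**Figure D3:**
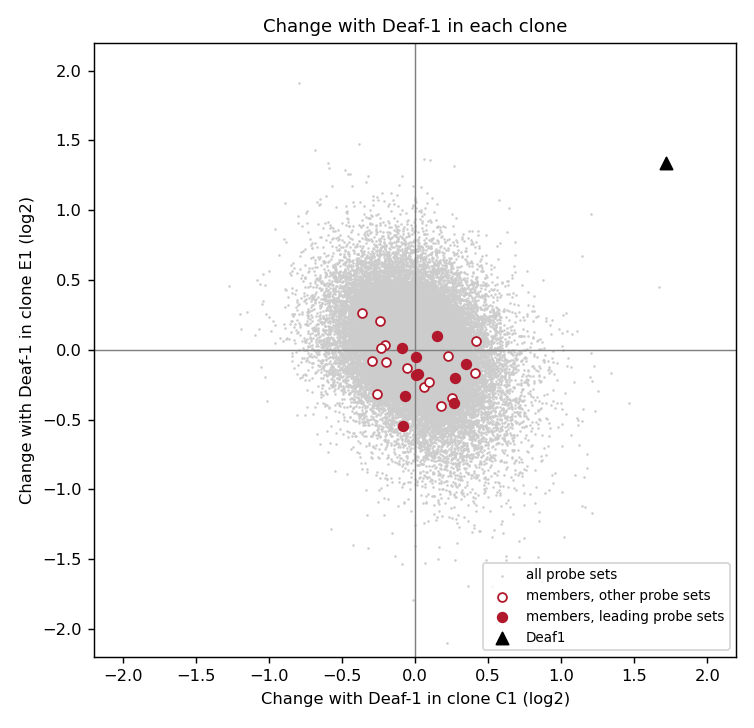
Log2 change with Deaf-1 against control, plotted for clone C1 (horizontal) against clone E1 (vertical), for all 45037 probe sets but 2 beyond the axes (grey), the leading (filled red) and other (open red) probe sets of the 10 genes, and Deaf1 (black triangle). The members lie inside the grey cloud, between -0.36 and 0.42 in C1 and between -0.55 and 0.26 in E1, and Deaf1 lies at 1.72 and 1.34.

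Other genes of the same route were taken from 6 lists with 69 genes, 65 of which had a probe set of their own. In E1, 7 of the 65 (10.8%) were higher at an unadjusted p under 0.01 by limma and 0 were lower. Over all 45037 probe sets 2.55% were higher and 2.83% lower, but only 22312 were above background, unlike most of the 65. Fitted alone, 2093 of the 22312 had p under 0.01 by limma in either direction, a share close to that of the 65. None of the 65 had an adjusted p under 0.05. The median log2 difference over the 65 was 0.056, against 0.0045 over all probe sets. With Deaf-1, 0 of 65 reached p under 0.01 or under 0.05, and the log2 fold changes ran from -0.38 to 0.29.

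Of the 2 other inhibitors, Cdkn1a, the p21 inhibitor that p53 induces, was higher in E1. It read 9.25 and 9.01 in C1 (control, then Deaf-1) and 10.7 on both arrays of E1 at 1424638_at, a 2.95-fold difference (log2 1.56, standard error 0.15, adjusted p = 0.0780 by limma). Cdkn2d, the remaining INK4 gene, read 7.65 on both C1 arrays, 8.14 in control E1 cells and 8.17 with Deaf-1, a log2 difference of 0.50 that did not pass (adjusted p = 0.250 by limma). None of the 13 genes of the retinoblastoma family and E2F factors passed. The list held differences in both directions, with E2f8 at 0.80 (adjusted p = 0.23 by limma), E2f1, an activator of S phase genes, at 0.49 (adjusted p = 0.256) and Tfdp2, a partner of E2F factors, at -0.54 (adjusted p = 0.366). Rb1 read 6.25 and 6.51 in C1 and 6.48 and 5.97 in E1, with clones that overlapped.

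Of 9 genes for cyclins E and A, Cdk2 and the kinase that activates CDKs, 2 were higher in E1. Ccne1, cyclin E1, was listed at 7.21 on both C1 arrays and 7.91 on both E1 arrays at 1441910_x_at (log2 difference 0.70, adjusted p = 0.164 by limma). Within each clone its arrays read the same (SD 2.1e-06), so its p rests on the spread that limma takes from other probe sets. Probes of this _x_at set may also match other transcripts. Cdk7, the catalytic subunit of the activating kinase, had 0.80 (adjusted p = 0.173 by limma), and its cyclin Ccnh had 0.60 (adjusted p = 0.219). Ccne2 had 0.80 (adjusted p = 0.216 by limma), and Cdk2 itself -0.41 (adjusted p = 0.413). None of 9 genes for the turnover and chaperones of these proteins passed, with Gsk3b, a kinase that marks cyclin D1 for degradation, at -0.58 (adjusted p = 0.237 by limma) and Skp2, which marks p27, at 0.15.

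Of 17 regulators of the Ink4a/Arf locus and partners of Arf, 1 passed. Id1, which counters Ets factors at the p16 promoter, had 0.95 (adjusted p = 0.131 by limma), from 6.61 and 6.65 in C1 to 7.66 and 7.496 in E1. Kdm6b, which removes a repressive histone mark at this locus, had -0.56 (adjusted p = 0.216 by limma). The Ets factors themselves were higher in E1 without overlap, Ets1 by 0.87 and Ets2 by 0.41, and did not pass. So were Tbx3 (0.92), Eed (0.52) and Mdm2 (0.48), among others. Lower without overlap, beside Kdm6b, were Cbx7 (-0.22), Twist1 (-0.21) and Npm1 (-0.20). The median difference of this list was 0.15. Of 15 genes of S phase and mitosis, 3 were higher in E1 and 0 lower at an unadjusted p under 0.01, beside 2.55% and 2.83% of all probe sets. Of these 15, 14 had a mean above background, against 22312 of all 45037 probe sets. Rrm2, a subunit of ribonucleotide reductase, had 1.33 (adjusted p = 0.0862 by limma), Mki67, which encodes Ki67, 0.96 (adjusted p = 0.122), and the mitotic kinase Plk1 0.72 (adjusted p = 0.173). Others of that list did not pass, in both directions, and the median difference of the list was 0.32. Higher in E1 without overlap were Bub1 (0.81), Top2a (0.63) and Mcm3 (0.59), among others. Lower without overlap were Mcm4, a subunit of the replicative helicase, with -0.51 (adjusted p = 0.275 by limma), Mcm2 (-0.13) and Tyms (-0.39). Tyms was above background on only 1 array. Pcna read 0.040.

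**Figure D4:**
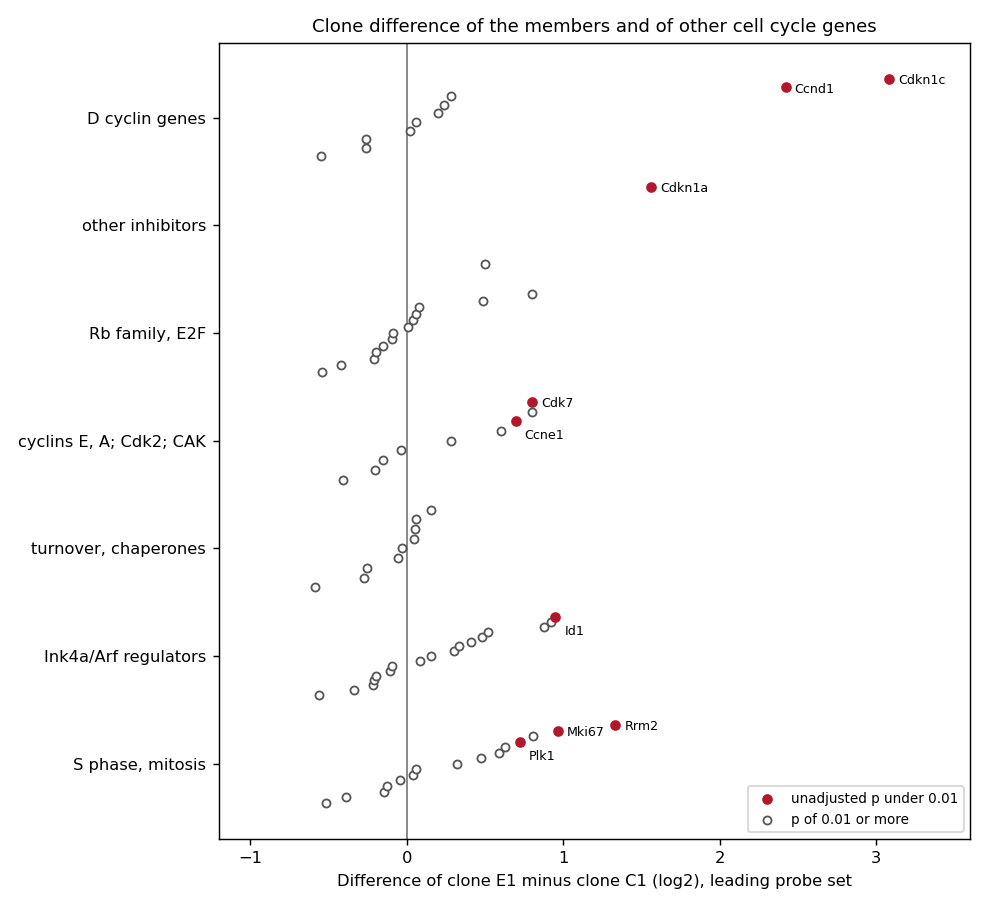
Difference of clone E1 minus clone C1 (log2, horizontal axis) at the leading probe set of each gene, for the 10 D cyclin genes and 6 lists of other cell cycle genes (rows). Filled red points have an unadjusted p under 0.01 and are named. The 7 named genes outside the top row lie between 0.70 and 1.56.

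Ccnd1 and Cdkn1c share a position that was noticed after their values were seen: RefSeq lists both on chromosome 7, with 21 protein-coding genes between them. Of 19 genes in between that had a probe set, 14 had a mean above background. E1 was higher than C1 on average at 13 of the 14 and lower at 1, with a median log2 difference of 0.30, against -0.016 over the 11697 genes above background. The 13 include Ano1 (0.019), Slc22a18 and Fgf3, where the clones overlapped. Only Tnfrsf22 (1.19) and Tnfrsf23 (1.47), decoy receptors of the TNF receptor family, had an unadjusted p under 0.01 by limma. The genes next to Ccnd1 and Cdkn1c that were above background, Fgf3 (0.31) and Slc22a18 (0.066), did not pass. As this stretch was picked for its ends, no test is given for it, and the number of DNA copies was not measured.

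**Figure D5:**
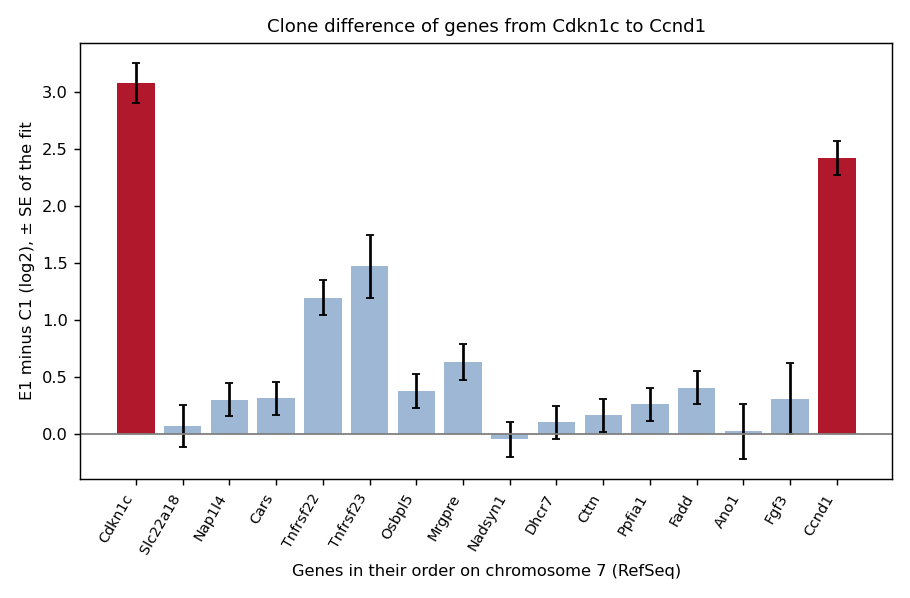
Difference of clone E1 minus clone C1 (log2, vertical axis, bars with the standard error of the fit) for Cdkn1c, the 14 genes above background between it and Ccnd1, and Ccnd1, in their order on chromosome 7. The end genes (red) reach 3.08 and 2.42, Tnfrsf22 and Tnfrsf23 1.19 and 1.47, and the other 12 lie between -0.053 and 0.63.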

How the data were processed

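RNA of 4 cultures was hybridized to Affymetrix mouse expression arrays. The authors deposited log2 values, 1 per probe set and array. The submitters' processing notes name RMA and limma, with versions not given in the sources used here. No value was normalized again for the main results. Of 45101 probe sets, 64 controls were left out. Symbols came from the array annotation (34945 probe sets with 1 symbol, 932 with several, 9160 with none), and 34741 were matched to RefSeq by gene identifier, with 0 changed. Genes other than the members were read at the probe set with the highest mean.

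lmFit and eBayes of limma 3.58.1 (R 4.3.3) were fitted to all 45037 probe sets with retrovirus and clone as terms, two-sided, with Benjamini-Hochberg adjustment. Clone was kept as a block because both retroviruses were put into the same clones, as the titles of the samples show, and because the study ranked genes by consistency between clones. Deviations of the arrays of a clone from their group means correlated at 0.54 across probe sets. The model leaves 1 residual degree of freedom, to which limma adds 3.21. The threshold of p under 0.01 is that of the study. The code was tested on simulated data. The number of arrays limits the precision.

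The members, lists and markers were chosen with earlier results of these data known. Named were all members, Deaf1, and from each list the genes with p under 0.01 between clones. Further list genes, among them Skp2, Rb1, Pcna, Mcm2, Mcm4 and Tyms, are examples and follow no full ranking by moderated t. No list gene was named for its change with Deaf-1. The genes between Cdkn1c and Ccnd1 and the markers with values were named outside that rule. Alternatives were the model without the block, each array left out, probe sets above background, cyclic loess, a further quantile normalization, an intensity trend in the prior, and the median over the probe sets of a gene.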

Additional observations from a re-analysis of the deposited data

Results flagged for a closer look

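For 7 of the 10 leading probe sets the change with Deaf-1 had opposite signs in the clones. With 1 array per clone and retrovirus the difference was not tested, and over all probe sets 58.9% had opposite signs. The change in E1 minus that in C1 (log2) was -0.65 for Cdk6, -0.48 for Cdkn2b, -0.45 for Cdkn1c, -0.19 for Ccnd2, -0.19 for Ccnd1, 0.10 for Cdk4 and -0.062 for Ccnd3.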

How the results depend on the processing

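Clone differences of Ccnd1 and Cdkn1c kept their direction and p under 0.01 in all fits that gave a test. Member probe sets with an adjusted p under 0.05 between clones numbered 2 in the fit reported and 4 without the replicate block (retrovirus not in the model), above background only, with cyclic loess, with quantile normalization and with an intensity trend. Over all probe sets that count was 49, and 2306, 416, 936, 1286 and 1696 in the same order, and at p under 0.01 it rose from 2425 to 4346 without the block. For Deaf-1 the count at p under 0.01 was 11, and 5 without the replicate block, 5 above background only, 27 with cyclic loess, 35 with quantile normalization and 25 with the trend. Members among them were 0 in each. The change of Ccnd3 turned from -0.023 to 0.015 with cyclic loess and 0.019 with quantile normalization. The pairing by clone changed no call of a member with Deaf-1.

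With 1 array left out and clone and retrovirus in the model, no residual degree of freedom remains, so these fits give values without a test. Leaving out an array left the difference of the other retrovirus or the change in the other clone: 2.33 to 2.51 for Ccnd1 and 2.86 to 3.31 for Cdkn1c between clones. Of 100 alternative values per comparison over the 10 genes, 93 had the sign of the reported value between clones and 84 with Deaf-1.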
